A study of Mus musculus with 12 samples.

Results

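Retinoic acid synthesis and signalling was followed here through 10 genes of 51490 in the deposited table: the retinaldehyde dehydrogenases *Aldh1a2* and *Aldh1a3*, the short-chain dehydrogenases *Rdh10*, *Dhrs9* and *Dhrs3*, the receptors *Rara*, *Rarb* and *Rarg*, and the binding proteins *Crabp1* and *Crabp2*. They were taken by symbol, and the set was chosen by measured values, because *Aldh1a2* was lower and *Dhrs9* higher in shSrsf3 cells. The differences between shSrsf3 and scramble cells are therefore given for these genes as a description, without a test. The responses to PDGF-AA played no part in the choice and were tested.

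Retinoic acid is a lipid-soluble signal made from vitamin A. Retinol is oxidized to retinaldehyde, a reversible step in which RDH10 works forward and DHRS3 works in reverse, and retinaldehyde dehydrogenases then convert retinaldehyde irreversibly to retinoic acid. The acid is bound in the cytoplasm by CRABP proteins, binds nuclear receptors (RARs) that sit on DNA with RXR partners, and is degraded by CYP26 enzymes. The pathway is needed for craniofacial development, and both too much and too little retinoic acid are classic causes of cleft palate in the mouse.

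The cells were immortalized mouse embryonic palatal mesenchyme (iMEPM) cells, a line that originated from a male *Cdkn2a*-/- embryo, so every group lacks *Cdkn2a*. They carried a lentiviral shRNA that was either a scramble control or directed against *Srsf3*, which encodes a splicing factor, with 1 sorted line per shRNA. Any difference between the shRNAs thus cannot be told apart from a difference between those lines. Cells received either no ligand or PDGF-AA at 10 ng/mL, the latter over 1 hr, giving 4 groups of 3 samples: scramble -PDGF-AA, shSrsf3 -PDGF-AA, scramble +PDGF-AA and shSrsf3 +PDGF-AA. Poly(A) RNA was sequenced, and expression is given as CPM, the counts of a gene relative to the library total, scaled between samples by TMM.

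Totals ran from 30958966 to 76123359 counts per sample, and the 3 shSrsf3 +PDGF-AA samples were among the 4 shallowest. *Srsf3* RNA was lower in shSrsf3 cells by a modest amount, with a log2 fold change of -0.34 ± 0.0379 (SE, n = 3 per group, edgeR adjusted p = 7.95e-06) in the absence of ligand and -0.43 ± 0.0381 (edgeR adjusted p = 9.54e-07) with it. The study measured the protein by western blot and reported a larger decrease of it in the shSrsf3 line. The 8 palate mesenchyme markers, among them *Pdgfra*, *Prrx1*, *Col1a1* and *Col1a2*, summed to between 34900 and 36700 CPM in scramble and between 31200 and 33300 CPM in shSrsf3 samples without ligand. Of the markers of other cell types, the 5 for epithelium summed to 4.75 to 6.02 CPM in scramble and 3.25 to 3.54 CPM in shSrsf3 samples, the 4 for endothelium to 30.5 to 33.3 and 22.1 to 22.6 CPM, the 4 for mesothelium to 15.4 to 17.8 and 17 to 17.7 CPM, the 4 for blood cells to 1.49 to 1.56 and 0.932 to 1.42 CPM, and the 4 for neural and glial cells to 2.75 to 2.87 and 2.31 to 3.22 CPM. With ligand the mesenchyme sums were 35300 to 35800 CPM in scramble and 31200 to 33400 CPM in shSrsf3 samples, and the others were 4.87 to 6.15 and 2.86 to 4.15 CPM for epithelium, 31 to 34.6 and 19.1 to 22.2 CPM for endothelium, 15.6 to 17.5 and 17.2 to 21.1 CPM for mesothelium, 0.814 to 1.68 and 1.21 to 1.44 CPM for blood cells, and 2.14 to 3.08 and 2.19 to 2.66 CPM for neural and glial cells. These sums hide genes that moved apart. Among the endothelial markers *Tek*, which makes up most of the sum, fell (log2 fold change -0.61 without and -0.84 with ligand), while *Cdh5* (2.33 and 2.82) and *Kdr* (1.24 and 0.91) rose, each past an edgeR adjusted p of 0.05. Among the mesothelial markers *Krt19* (0.43 and 0.88) and *Upk3b* (0.60 and 1.03) rose, and *Msln*, which makes up most of the sum, was at -0.08 and -0.06 and was not called. *Cdh1* (-2.24 and -1.95) was the epithelial marker that fell, and no blood cell marker was called. *Col1a1* and *Col1a2* make up most of the mesenchyme sum. Of the mesenchyme markers 1 rose and 5 fell in shSrsf3 cells without ligand, and 1 rose and 4 fell with it, by edgeR. Over all genes 45.9% and 41.0% were called. Those that fell include the low transcripts *Msx1* (-0.93 and -1.10) and, without ligand only, *Osr2* (-0.82). Their means were 1.7 and 5.2 CPM in scramble -PDGF-AA samples. *Sox10*, *Elavl4* and *Adgre1* had no count in any sample, and *Wt1*, which defines mesothelium, had 0 to 6 counts. The part of these marker differences in the results below was not tested. In bulk samples such as these, fewer cells that express a gene and less RNA per cell cannot be told apart.

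The promoters of *Aldh1a2* and *Dhrs9*, the members with the widest differences between the shRNAs, are shown because their CG content differs widely. The stretches are RefSeq promoters (250 bases before the annotated start to 50 after it, table build GRCm38.p6), found by exact match on the plus strand of GRCm39 at chr9:71122821-71123120 for *Aldh1a2* and chr2:69210556-69210855 for *Dhrs9*. Capitals mark each CG, the dinucleotide at which mammalian DNA is methylated.
Aldh1a2: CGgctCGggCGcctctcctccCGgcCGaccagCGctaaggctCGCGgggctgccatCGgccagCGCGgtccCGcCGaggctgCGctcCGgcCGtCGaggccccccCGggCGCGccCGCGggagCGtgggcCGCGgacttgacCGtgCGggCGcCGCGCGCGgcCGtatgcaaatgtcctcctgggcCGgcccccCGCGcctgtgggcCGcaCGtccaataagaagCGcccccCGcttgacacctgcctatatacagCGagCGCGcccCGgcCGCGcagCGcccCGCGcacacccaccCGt
Dhrs9: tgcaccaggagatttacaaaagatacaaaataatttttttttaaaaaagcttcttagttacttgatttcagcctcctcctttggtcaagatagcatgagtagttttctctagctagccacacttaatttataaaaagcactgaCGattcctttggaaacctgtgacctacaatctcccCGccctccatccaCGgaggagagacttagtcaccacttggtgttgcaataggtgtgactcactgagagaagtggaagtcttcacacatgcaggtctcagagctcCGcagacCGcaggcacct
The *Aldh1a2* stretch held 50 CG dinucleotides and 78.0% G or C, and 99.1% of the 32851 promoters in the table held fewer CG. The *Dhrs9* stretch held 5 CG dinucleotides and 43.7% G or C, with 38.0% of promoters holding fewer and a median of 7 over all promoters. DNA methylation was not measured.

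Receptors bind DNA at retinoic acid response elements, and the best known is the DR5 element, a direct repeat of a half-site. Searched on both strands, a DR5 element stood in 32 of the 32851 promoters (0.0974%). Among the 52 members and pathway genes found in the table, 7 of them members, only *Rarb* and *Cyp26a1* held one, and none held the related DR2 element (88 promoters, 0.268%). The elements are shown because both genes are textbook targets of the receptors, with the match in capitals and 20 bases on each side. They lie on the plus strand of GRCm39 at chr14:5894214-5894270 for *Rarb* and chr19:37686204-37686260 for *Cyp26a1*, where the element reads along the other strand.
Rarb: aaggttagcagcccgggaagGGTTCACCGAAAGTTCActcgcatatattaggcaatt
Cyp26a1: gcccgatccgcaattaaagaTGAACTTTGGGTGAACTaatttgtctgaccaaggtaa
The *Rarb* element runs from -53 to -37 and the *Cyp26a1* element from -32 to -16 relative to the start. As given below, neither gene had more than 13 counts in any sample. A match is a description of letters and not of binding.

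*Aldh1a2* (chr9:71122630-71203527, plus strand), which encodes a retinaldehyde dehydrogenase and is the main source of retinoic acid in the early mouse embryo, was a low but steady transcript in scramble cells. In the absence of ligand it measured 2.55, 2.55 and 2.54 CPM in the scramble samples and 0.285, 0.137 and 0.134 CPM in the shSrsf3 samples. With PDGF-AA it measured 2.36, 1.63 and 2.60 CPM in scramble and 0.134, 0.124 and 0.129 CPM in shSrsf3 samples. Every shSrsf3 sample lay far below every scramble sample. The log2 fold change was -3.68 ± 0.266 (SE, n = 3 per group) without ligand, a level 12.8-fold lower, and -4.07 ± 0.319 with ligand, a level 16.8-fold lower. These low levels rest on few reads, 22, 9 and 5 counts in shSrsf3 -PDGF-AA samples and 5, 4 and 4 in shSrsf3 +PDGF-AA samples, against 92 to 168 counts in the scramble samples.

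*Aldh1a3* (chr7:66040638-66077850, minus strand) encodes a second retinaldehyde dehydrogenase, known from the developing eye and nose. It measured 2.55, 2.71 and 3.15 CPM in scramble and 4.40, 4.05 and 4.51 CPM in shSrsf3 samples without ligand. With ligand the values were 2.86, 2.45 and 2.49 CPM against 3.15, 2.66 and 4.28 CPM. The groups stood apart only in the absence of ligand, where the log2 fold change was 0.61 ± 0.148 (SE), and overlapped with ligand, where it was 0.37 ± 0.155. Without shSrsf3 +PDGF-AA replicate 3, the value with ligand was 0.17. Without the 3 samples of lowest mapping rate in the study, which leaves scramble -PDGF-AA with replicate 3 alone, the value without ligand was 0.45.

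Compared per kilobase of transcript, which allows levels of different genes to be set side by side, the makeup of the retinaldehyde dehydrogenases differed between the shRNAs. In the absence of ligand *Aldh1a2* made up 34.0% ± 2.17 (SD, n = 3) of the summed *Aldh1a1*, *Aldh1a2* and *Aldh1a3* level in scramble cells but 2.21% ± 0.935 in shSrsf3 cells. *Aldh1a3* was the most abundant of the enzymes in both, with 61.5% ± 2.92 and 85.7% ± 1.89. The sum of the 3 genes was 2.47 ± 0.155 CPM per kb in scramble and 2.74 ± 0.161 CPM per kb in shSrsf3 samples without ligand, ranges that overlapped. With ligand the sums were 2.20 ± 0.255 and 2.24 ± 0.443 CPM per kb, and *Aldh1a2* made up 32.5% ± 4.92 and 1.93% ± 0.336. The sums thus overlapped between the shRNAs in both settings, while the shares of *Aldh1a2* were far apart.

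**Figure D1:**
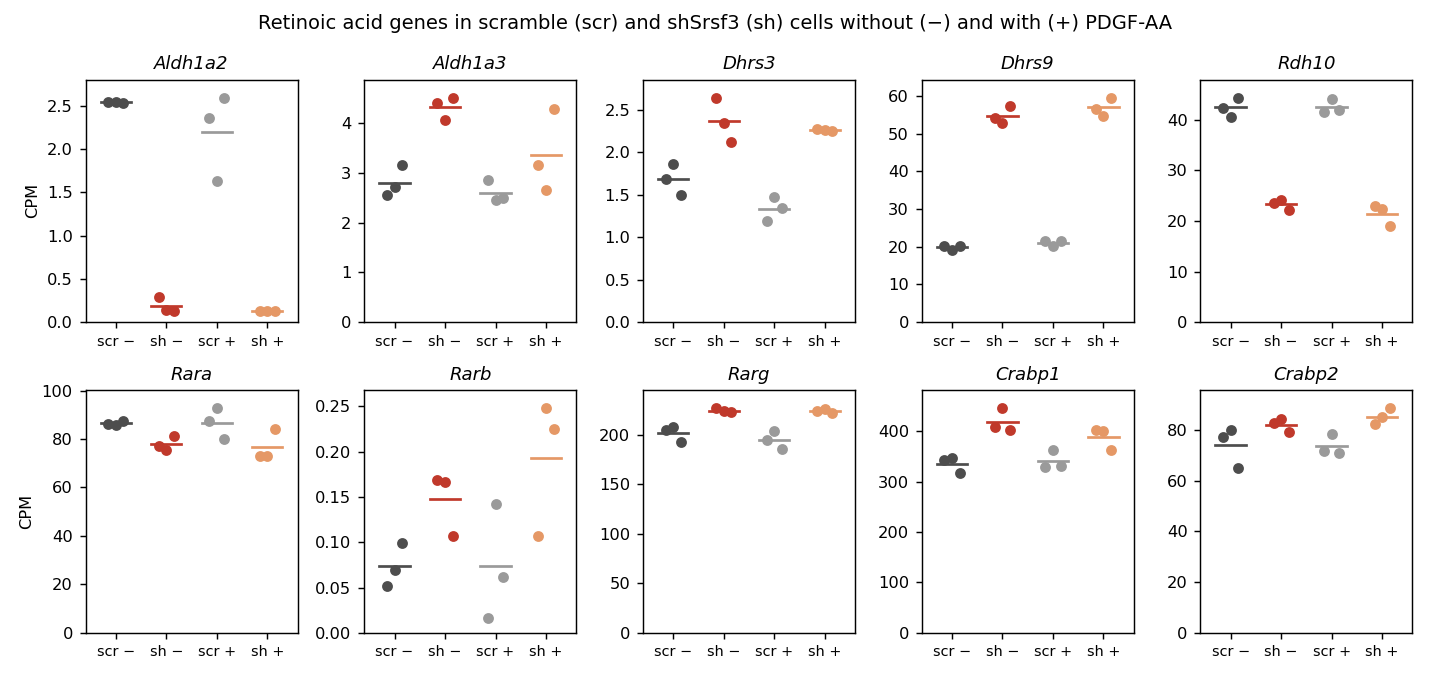
Expression in CPM (vertical axes, linear, starting at 0) of the 10 genes in each of the 12 samples, with scramble (scr) and shSrsf3 (sh) cells without (−) and with (+) PDGF-AA along the horizontal axes; points are samples and lines are group means of 3. *Aldh1a2* and *Rdh10* lie lower and *Dhrs9* higher in every shSrsf3 sample, and *Rarb* stays under 0.25 CPM throughout.

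*Rdh10* (chr1:16175555-16203958, plus strand), the retinol dehydrogenase that supplies most embryonic retinaldehyde, was also lower in shSrsf3 cells. It measured 42.5, 40.6 and 44.4 CPM in scramble and 23.5, 24.2 and 22.2 CPM in shSrsf3 samples without ligand. With ligand it measured 41.5, 44.2 and 42.0 CPM against 22.9, 22.3 and 19.1 CPM. The groups were far apart in both settings, with log2 fold changes of -0.87 ± 0.0598 and -0.99 ± 0.0618 (SE). The latter, a 1.98-fold difference, falls just short of the 2-fold minimum that the study set for DE genes, and leaving out single samples moved it between -1.04 and -0.91.

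*Dhrs9* (chr2:69210776-69234877, plus strand), which encodes a short-chain dehydrogenase able to oxidize retinol, ran the other way. Without ligand it measured 20.1, 19.1 and 20.3 CPM in scramble and 54.1, 52.8 and 57.4 CPM in shSrsf3 samples. With ligand it measured 21.5, 20.3 and 21.4 CPM against 56.7, 54.7 and 59.6 CPM. The 2 sets of values were tight and well separated, with log2 fold changes of 1.46 ± 0.0469 and 1.44 ± 0.0467 (SE), or 2.76-fold and 2.70-fold higher.

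*Dhrs3* (chr4:144619245-144654779, plus strand), the retinaldehyde reductase that returns retinaldehyde to retinol and is itself known to be induced by retinoic acid, was a low transcript. It measured 1.69, 1.86 and 1.49 CPM in scramble and 2.64, 2.34 and 2.12 CPM in shSrsf3 samples without ligand. With ligand it measured 1.20, 1.47 and 1.34 CPM against 2.27, 2.26 and 2.25 CPM. All shSrsf3 samples were above all scramble samples, with log2 fold changes of 0.51 ± 0.142 and 0.76 ± 0.147 (SE).

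Among these 3 enzymes, *Rdh10* and *Dhrs9* exchanged places per kilobase. *Rdh10* made up 66.6% ± 0.840 (SD, n = 3) of their sum in scramble and 29.8% ± 1.64 in shSrsf3 samples without ligand, and *Dhrs9* made up 28.7% ± 0.266 and 64.7% ± 2.08. With ligand *Rdh10* held 66.1% ± 1.12 and 27.5% ± 2.62 and *Dhrs9* 30.2% ± 1.4 and 67.4% ± 2.64. *Dhrs3* stayed between 3.72% and 5.44% in all 4 group means.

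**Figure D2:**
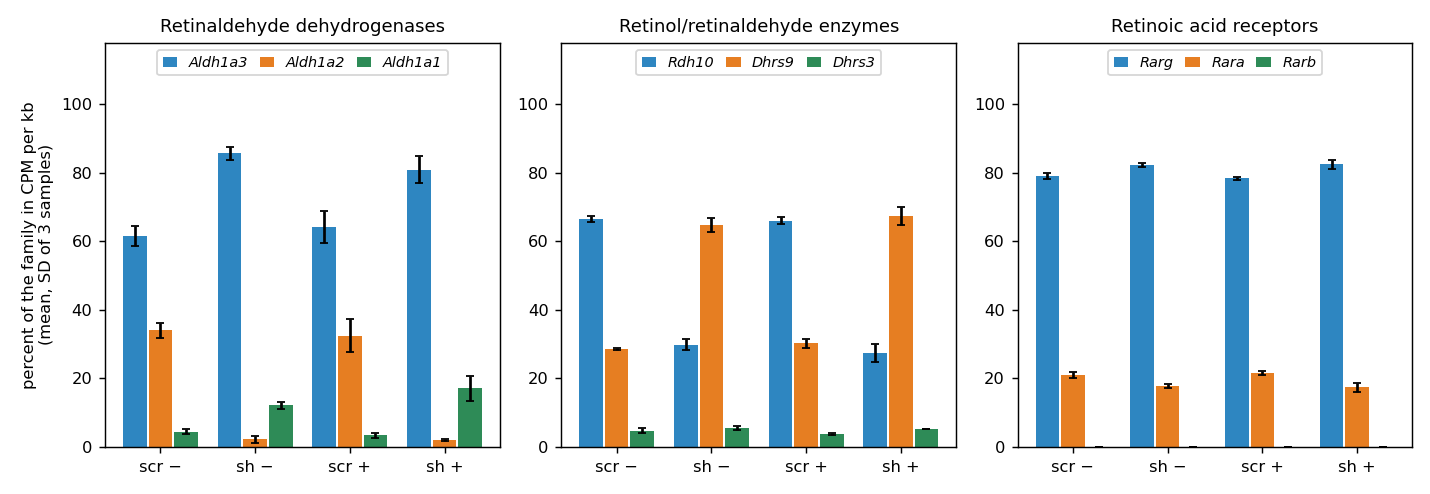
Share of each gene in the summed level of its family in CPM per kb (vertical axis, percent), by group (scr, scramble; sh, shSrsf3; −, without and +, with PDGF-AA); bars are means and whiskers the SD of 3 samples. *Aldh1a2* makes up 34.0% of the dehydrogenases in scramble and 2.21% in shSrsf3 cells without ligand, *Dhrs9* replaces *Rdh10* as the main transcript of its panel, and *Rarg* leads the receptors in every group.

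The receptors were much more abundant and differed little. *Rarg* (chr15:102143373-102165952, minus strand), the receptor best known from cartilage and skin, measured 205, 208 and 192 CPM in scramble and 226, 223 and 222 CPM in shSrsf3 samples without ligand, and 194, 204 and 185 against 223, 226 and 222 CPM with ligand. Every shSrsf3 sample was above every scramble sample, by log2 fold changes of only 0.15 ± 0.0409 and 0.20 ± 0.0409 (SE). *Rara* (chr11:98818612-98865768, plus strand), the broadly expressed receptor, measured 86.3, 85.9 and 87.5 CPM in scramble and 77.2, 75.5 and 81.3 CPM in shSrsf3 samples without ligand. With ligand it measured 87.4, 92.6 and 79.9 CPM against 72.8, 73.0 and 84.0 CPM, where the groups overlapped. Its log2 fold changes were -0.15 ± 0.0615 and -0.18 ± 0.0618.

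*Rarb* (chr14:5650540-6041094, plus strand), itself a textbook target of the receptors, had too few reads to be tested. It had 2, 3 and 6 counts in scramble -PDGF-AA, 13, 11 and 4 in shSrsf3 -PDGF-AA, 1, 8 and 4 in scramble +PDGF-AA and 4, 8 and 7 in shSrsf3 +PDGF-AA samples. Mean levels were 0.0735, 0.148, 0.0734 and 0.193 CPM in that order, and no fold is drawn from so few counts. *Rarb* overlaps *Top2b* on the opposite strand, and the libraries were stranded. Per kilobase, *Rarg* made up 79.0% ± 0.870 (SD, n = 3) of the receptor sum in scramble and 82.3% ± 0.633 in shSrsf3 samples without ligand, and *Rara* nearly all of the rest.

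*Crabp1* (chr9:54671171-54680403, plus strand), which encodes a cytoplasmic retinoic acid-binding protein that marks cranial neural crest and its mesenchyme, was the most abundant of the 10 genes. It measured 344, 347 and 317 CPM in scramble and 408, 446 and 403 CPM in shSrsf3 samples without ligand, and 330, 364 and 332 against 402, 400 and 363 CPM with ligand. The groups stood apart without ligand and overlapped by a single sample with it, with log2 fold changes of 0.32 ± 0.0560 and 0.19 ± 0.0560 (SE). *Crabp2* (chr3:87855973-87860683, plus strand), whose protein delivers retinoic acid to the receptors, measured 77.4, 80.0 and 64.9 CPM against 82.9, 84.6 and 79.1 CPM without ligand, and 71.9, 78.6 and 71.1 against 82.2, 85.0 and 88.6 CPM with it. These groups overlapped without ligand, and the log2 fold changes were 0.15 ± 0.0683 and 0.21 ± 0.0685.

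Ranked per kilobase by the mean over 12 samples among 12831 genes, the order of the members was *Crabp1* (percentile 98.9), *Rarg* (96.1), *Crabp2* (94.5), *Rara* (80.4), *Dhrs9* (52.8), *Rdh10* (50.7), *Aldh1a3* (23.8), *Dhrs3* (16.9) and *Aldh1a2* (11.8), with *Rarb* unranked. The binding proteins and 2 of the 3 receptors were thus high, and the enzymes among the members middling to low. The order of *Dhrs9* and *Rdh10* depended on the shRNA, since *Rdh10* was higher per kilobase in every scramble sample and *Dhrs9* in every shSrsf3 sample.

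Of the 10 members, 9 passed the filter on low counts. In the absence of ligand 5 of the 9 were higher and 2 lower at an adjusted p of 0.05 or less, where 45.9% of all 15037 tested genes were called (22.2% higher and 23.7% lower). With the 2-fold minimum 1 was higher and 1 lower, where 5.75% of all genes were called (2.99% higher and 2.76% lower). With ligand 5 were higher and 3 lower, beside 41.0% of all genes (20.3% higher and 20.7% lower), and with the 2-fold minimum 1 was higher and 1 lower, beside 5.42% (2.85% higher and 2.57% lower). Groups did not overlap for 8 of 9 without ligand, against 53.3% of all genes, and for 6 of 9 with it, against 52.6%. The median log2 fold change of the 9 was 0.15 and 0.20, beside -0.02 and -0.01 over all tested genes. Without the 3 samples of lowest mapping rate, which leaves scramble -PDGF-AA with replicate 3 alone, *Aldh1a3* was at 0.45 and *Crabp2* at 0.34 without ligand. Since these comparisons chose the set, nothing is read from the counts.

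**Figure D3:**
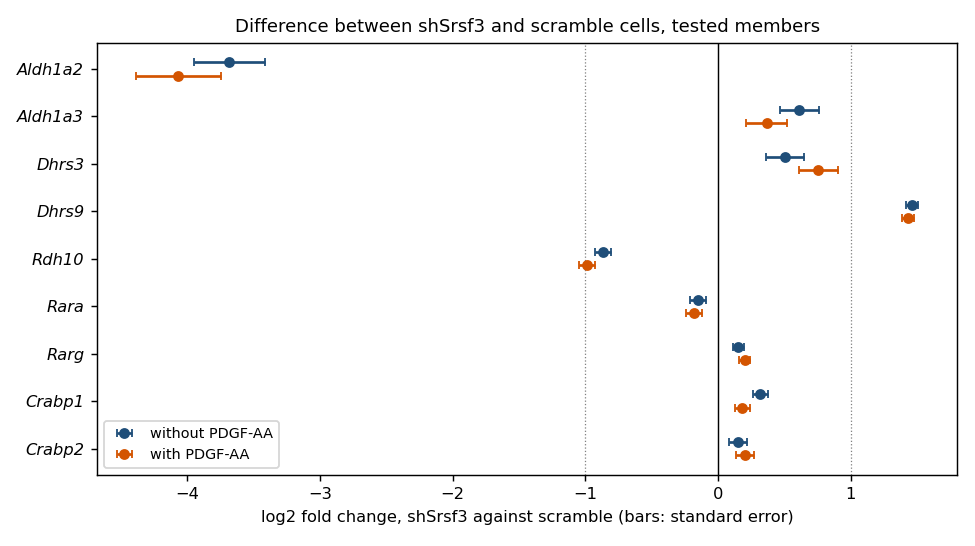
Log2 fold change of shSrsf3 against scramble cells (horizontal axis) for the 9 tested members, without (blue) and with (orange) PDGF-AA; whiskers are standard errors and dotted lines mark 2-fold. *Aldh1a2* lies at -3.68 and -4.07, *Dhrs9* at 1.46 and 1.44, *Rdh10* at -0.87 and -0.99, and the other 6 within 2-fold of 0.

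The rest of the retinoid pathway was not used to choose the set and was tested. Its lists were drawn up with earlier results of these data known, so the calls are not independent of those results. Of 57 other genes, 33 passed the filter. In the absence of ligand 6 rose in shSrsf3 cells, 8 fell and 19 did not pass the test, and with ligand 9 rose, 7 fell and 17 did not. These shares are close to the 45.9% and 41.0% called over all genes. With the 2-fold minimum, 2 rose and 2 fell without ligand and 3 rose and 2 fell with it. Over all genes 5.75% and 5.42% were called with that minimum. The 24 untested genes had at most 13 counts in any sample, and 6 of them, *Lrat* included, had none.

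*Cyp26b1* (chr6:84548396-84570890, minus strand), the enzyme that degrades retinoic acid and whose transcript is itself known to respond to it, fell in shSrsf3 cells. It measured 50.0, 53.8 and 56.2 CPM in scramble and 17.4, 18.4 and 19.5 CPM in shSrsf3 samples without ligand. With ligand it measured 47.8, 56.5 and 53.1 CPM against 19.5, 19.1 and 16.5 CPM. The log2 fold changes were -1.54 ± 0.0735 (SE, edgeR adjusted p = 2.46e-09) and -1.51 ± 0.0756 (edgeR adjusted p = 4.06e-09), with no overlap between groups. The other CYP26 enzymes were nearly silent, with 0 to 6 counts for *Cyp26a1* and 0 to 1 for *Cyp26c1*.

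Among the 18 other retinol and retinaldehyde oxidoreductases, 9 were tested. Of these, 2 rose and 2 fell without ligand and 2 rose and none fell with it, beside 45.9% and 41.0% of all genes called. *Aldh1a1*, the remaining retinaldehyde dehydrogenase, had the largest change of these. It rose from 0.537 ± 0.0630 to 1.63 ± 0.182 CPM (SD, n = 3) without ligand, a log2 fold change of 1.62 ± 0.207 (SE, edgeR adjusted p = 2.92e-05). With ligand it rose from 0.364 ± 0.102 to 1.83 ± 0.0541 CPM, a log2 fold change of 2.32 ± 0.215 (edgeR adjusted p = 1.55e-06). Per kilobase it remained the least abundant of the 3 dehydrogenases in scramble cells, at 4.47% ± 0.768 of their sum without ligand, and passed *Aldh1a2* in shSrsf3 cells, at 12.1% ± 0.996.

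Of 16 genes known to respond to retinoic acid, 9 were tested. *Cyp26b1* and *Nrip1* are among the 9 and are also counted on another of the lists. Without ligand 1 rose and 6 fell, and with ligand 1 rose and 4 fell. Over all genes 45.9% and 41.0% were called, with 23.7% and 20.7% lower. The medians of the tested genes were -0.33 and -0.12 on the log2 scale, beside -0.02 and -0.01 over all genes. The gene that rose was *Tgm2*, which encodes tissue transglutaminase, from 31.8 ± 0.643 to 88.7 ± 2.04 CPM (SD, n = 3) without ligand (log2 fold change 1.48, edgeR adjusted p = 5.11e-09) and from 33.7 ± 4.29 to 90.9 ± 6.30 CPM with it (1.43, edgeR adjusted p = 7.52e-09). *Rarres2*, which encodes the secreted protein chemerin, fell by 1.21 ± 0.287 (SE, edgeR adjusted p = 0.00352) on the log2 scale without ligand and by 1.71 ± 0.333 (edgeR adjusted p = 0.00103) with it, from counts of 22 to 35 in scramble and 4 to 23 in shSrsf3 samples. Without the 3 samples of lowest mapping rate in the study, which leaves scramble -PDGF-AA with replicate 3 alone, the *Rarres2* value without ligand was -1.02.

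The nuclear partners of the receptors changed little. Of 15 such genes, 14 were tested, and 3 rose and 1 fell without ligand and 5 rose and 3 fell with it, none by 2-fold. Over all genes 45.9% and 41.0% were called. Of the 10 genes for uptake, storage and binding of retinoids, only 3 were tested, with no call without ligand and 1 higher and 1 lower with it. The gene called higher there was *Bco1*, which encodes the enzyme that cleaves beta-carotene, at 2 to 3 counts in scramble and 3 to 6 in shSrsf3 samples (log2 fold change 1.67 ± 0.497, edgeR adjusted p = 0.0230). That call was lost with DESeq2 (adjusted p = 0.0851) and when scramble +PDGF-AA replicate 1 or shSrsf3 +PDGF-AA replicate 1 was left out (edgeR adjusted p = 0.057 and 0.124).

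**Figure D4:**
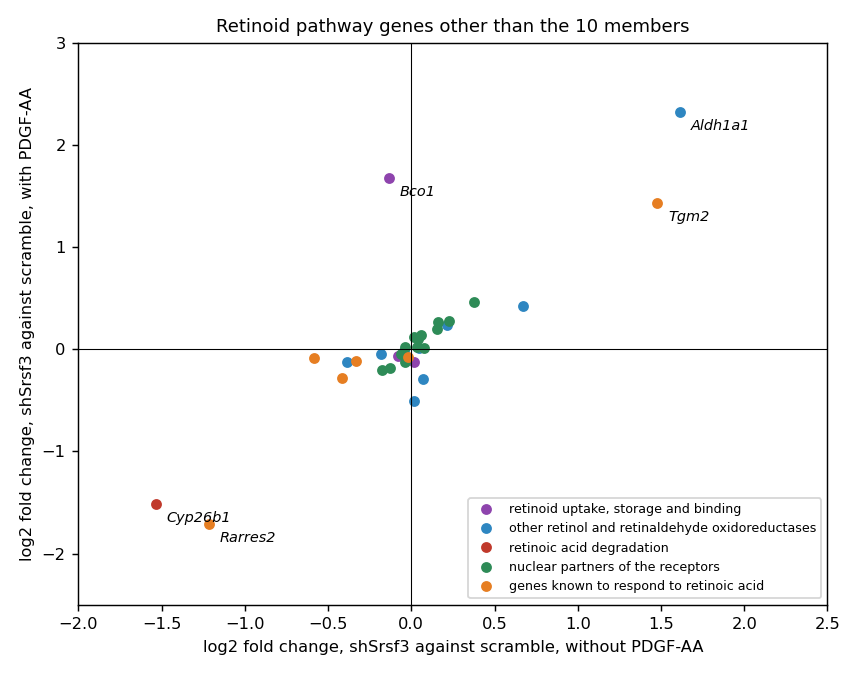
Log2 fold change of shSrsf3 against scramble cells without (horizontal axis) and with (vertical axis) PDGF-AA for the 33 tested pathway genes other than members. Points are coloured by list, and genes on several lists are drawn once, such as *Cyp26b1* under degradation. Names mark genes called with the 2-fold minimum in either comparison. *Aldh1a1* and *Tgm2* lie at the upper right, *Cyp26b1* and *Rarres2* at the lower left, and *Bco1*, at 2 to 15 counts, lies high with ligand only.

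PDGF-AA did not detectably change the members within 1 hr. In scramble cells 0 of 9 were called by edgeR at an adjusted p of 0.05 or less, where 4.04% of all genes were (2.00% higher and 2.04% lower), and 1 had an unadjusted p under 0.05. Log2 fold changes ran from -0.32 to 0.09. *Dhrs3* had the largest, at -0.32 ± 0.147 (SE, edgeR adjusted p = 0.270), and its groups did not overlap. *Dhrs9* was at 0.09 ± 0.0478 (edgeR adjusted p = 0.366), also without overlap, and *Aldh1a2* at -0.21 ± 0.204 (edgeR adjusted p = 0.633). Groups stood apart for 2 of 9 members, against 18.8% of all genes.

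In shSrsf3 cells 0 of 9 were called by edgeR (0.565% of all genes), again with 1 at an unadjusted p under 0.05. *Aldh1a2* was at -0.59 ± 0.429 (SE, edgeR adjusted p = 0.736) on its few counts, and at -0.07 without shSrsf3 -PDGF-AA replicate 1, the sample with 22 counts. *Aldh1a3* was at -0.36 ± 0.150 (edgeR adjusted p = 0.455) and *Crabp1* at -0.11 ± 0.0559 (edgeR adjusted p = 0.589). DESeq2 called 0 members in both comparisons as well.

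Whether the difference between shSrsf3 and scramble cells depended on the ligand was tested as an interaction, for which 0 of 9 members were called by edgeR (0.0133% of all genes), 0 by DESeq2 and 0 at an unadjusted p under 0.05. The interaction was -0.38 ± 0.473 (SE, edgeR adjusted p = 0.911) for *Aldh1a2*, 0.25 ± 0.204 (edgeR adjusted p = 0.882) for *Dhrs3*, -0.24 ± 0.214 (edgeR adjusted p = 0.883) for *Aldh1a3* and -0.13 ± 0.0791 (edgeR adjusted p = 0.874) for *Crabp1*. The standard errors show how unequal the precision was, since for *Dhrs9* the interaction was -0.03 ± 0.0655 on the log2 scale.

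**Figure D5:**
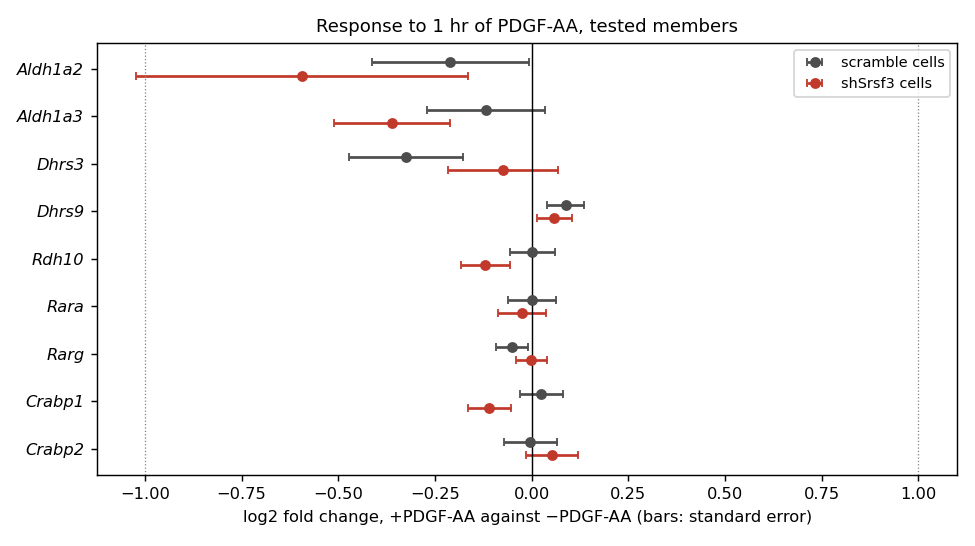
Log2 fold change of +PDGF-AA against -PDGF-AA samples (horizontal axis) for the 9 tested members in scramble (grey) and shSrsf3 (red) cells; whiskers are standard errors and dotted lines mark 2-fold. All values lie between -0.59 and 0.09, and the widest whisker belongs to *Aldh1a2* in shSrsf3 cells.

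Of the 33 other pathway genes tested, 5 fell and none rose with PDGF-AA in scramble cells, where 2.04% of all genes fell. *Meis1*, which encodes a homeodomain cofactor, had a log2 fold change of -0.31 (edgeR adjusted p = 0.0202). *Rxrb*, an RXR partner of the receptors, was at -0.15 (edgeR adjusted p = 0.0209) and the retinol dehydrogenase gene *Rdh14* at -0.27 (edgeR adjusted p = 0.0417). *Bco1* was at -2.37 (edgeR adjusted p = 0.00709) on 2 to 13 counts, and DESeq2 gave it no adjusted p. Without the 3 samples of lowest mapping rate, which leaves scramble -PDGF-AA with replicate 3 alone, *Bco1* was at -2.36. The calls of *Meis1*, *Rxrb* and *Rdh14* were each lost when single samples were left out, with edgeR adjusted p up to 0.0973 for *Meis1*, 0.114 for *Rxrb* and 0.161 for *Rdh14*. In shSrsf3 cells and in the interaction, edgeR called 0 of the 33.

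The genes whose pattern over the 12 samples was most like that of *Aldh1a2*, by the root mean square difference of centred log2 CPM among 12251 genes, were *Igfbp2* (0.24), *Piezo2* (0.27), *Kif26b* (0.30), *Gm18787* (0.33) and *Serpina3g* (0.39). *Igfbp2*, which encodes a secreted binding protein for insulin-like growth factors, had a mean of 593 CPM in scramble and 60.0 CPM in shSrsf3 cells without ligand. For *Dhrs9* they were *Emilin2* (0.06), *Tgm2* (0.07), *Fndc3c1* (0.07), *Pla2r1* (0.09) and *Abcb1b* (0.10), of which *Tgm2* is also on the retinoic acid-responsive list. These distances use the values that chose *Aldh1a2* and *Dhrs9*, so genes with a like difference between the shRNAs rank high. The distances describe the samples and carry no test.

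The nearest tested protein-coding genes on each side are given as a description of the surrounding chromosome. Over all genes 45.9% were called without ligand and 41.0% with it, so single calls among neighbours say little. Beside *Aldh1a2*, *Polr2m*, 182.2 kb away, was at -0.15 in both comparisons (edgeR adjusted p = 0.00747 without and 0.00879 with ligand) and *Adam10*, 435.1 kb away, at -0.26 and -0.21 (edgeR adjusted p = 4.03e-05 and 2.75e-04), far smaller than the -3.68 and -4.07 of *Aldh1a2*. *Myzap*, 207.7 kb away and at a mean of 0.741 CPM, was at -0.40 and -0.43 (edgeR adjusted p = 0.09 and 0.121). *Mindy2* was at -0.02 and -0.08 (edgeR adjusted p = 0.821 and 0.302), and neither was called. Beside *Dhrs9*, *Lrp2*, 19.8 kb away, was at 0.06 and -0.09 (edgeR adjusted p = 0.855 and 0.795), and *Bbs5* was not called. On the other side *Abcb11*, 37.5 kb away and at a mean of 0.528 CPM, rose by 1.03 ± 0.330 (SE, edgeR adjusted p = 0.0205) and 2.44 ± 0.376 (edgeR adjusted p = 1.54e-04) on the log2 scale, and *Spc25* by 0.28 and 0.45 (edgeR adjusted p = 0.0185 and 0.00119).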

How the data were processed

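The authors trimmed reads with BBDuk, quantified them with Salmon 1.4.0 against GENCODE transcripts of GRCm39, and summarised them to genes. They deposited estimated counts per gene, of which 16.3% were not whole, and these were rounded to whole numbers here. How the counts were scaled at summarising is not given in the sources used here. Genes were tested with edgeR 4.0.16 (quasi-likelihood, TMM, filterByExpr with a minimum count of 10, 1 mean per group over 12 samples) in R 4.3.3, with Benjamini-Hochberg adjustment over 15037 genes. DE genes follow the study's rule of an adjusted p of 0.05 or less and 2-fold, with no fold minimum for PDGF-AA and the interaction. Alternatives were DESeq2 1.42.0, other size factors, filters, sample sets, a replicate block and each sample left out. The members and lists were chosen with earlier results of these data known. Named were all members, pathway genes called with the 2-fold minimum in a knockdown comparison or called in a PDGF-AA comparison, the 5 genes most like *Aldh1a2* and *Dhrs9* (mean of at least 1 CPM, pseudocount 0.1 CPM), the 2 nearest tested genes on each side, and *Srsf3*; a few others were added after their values were seen, and 1 gene that the rule names is not reported here. Positions and transcript lengths (mean of the coding transcripts) come from a later GENCODE release on GRCm39. No more than 3.05% of the 31-mers of any member were shared with other genes. The study describes the 3 samples of a group as independent biological replicates, and no pair of samples in a group agreed within sampling noise. The code was tested on simulated data.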

Additional observations from a re-analysis of the deposited data

How the results depend on the processing

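The 2 members called with the 2-fold minimum in each knockdown comparison, *Aldh1a2* and *Dhrs9*, became 7 without ligand and 8 with it when no fold minimum was set, and the 5 pathway genes became 20. Since the knockdown comparisons chose the members, nothing is read from their counts in these comparisons, here or below. With a minimum count of 50, 3 pathway genes were called, fewer genes being tested. Leaving out single samples gave 2 to 3 called members with ligand, where *Rdh10* lies at the threshold. With the longest transcript in place of the mean length, the share of *Aldh1a2* in scramble -PDGF-AA samples was 41.4% and that of *Dhrs9* 29.3%, and with ligand *Aldh1a2* was at 40.0% in scramble and 2.45% in shSrsf3 samples. With single samples left out, *Bco1* without ligand ran from -0.28 to 0.083 on the log2 scale, passing 0 without scramble -PDGF-AA replicate 2 (0.014) and without shSrsf3 -PDGF-AA replicate 1 (0.083). The *Aldh1a2* interaction ran from -0.60 to 0.14, and neither was called in any fit. The cause was not tested.

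Replicate numbers did not pair the samples: correlations of same-numbered samples ran from -0.62 to 0.74. With the replicate number as a block, 2, 2, 0, 0 and 0 members were called in the knockdown comparisons without and with ligand, the PDGF-AA responses in scramble and shSrsf3 cells and the interaction, and 5 pathway genes, and no call of a named pathway gene was lost. Depth limits what can be said of *Rarb* and, in shSrsf3 cells, of *Aldh1a2*.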
